A study of Mus musculus with 42 samples.

Results

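The dorsomedial hypothalamus (DMH) of fasted mice was set against 3 neighbours of fasted mice, the paraventricular nucleus (PVN), the ventromedial hypothalamus (VMH) and the arcuate nucleus (ARC). RNA came from nuclei cut out of brain sections by laser-capture microdissection, and the mice were wild-type C57/BL6 males that had gone without food for 24 hours. There were 4 fasted DMH, 5 fasted ARC, 6 fasted VMH and 5 fasted PVN libraries among the 42 libraries of the series. The other 22 libraries, 5 DMH, 5 ARC, 6 VMH and 6 PVN, came from mice fed ad libitum, and served here as libraries whose means had no part in choosing genes. No genetic change or drug separated the groups.

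A gene belonged to the set when it differed from each of the 3 other fasted nuclei, in the same direction, at an adjusted p under 0.1 (limma on log2(RPKM + 1), Benjamini-Hochberg adjustment over all genes in each comparison). Of 37907 genes in the table, 33579 reached 1 RPKM in at least 4 libraries and were tested. Fasted DMH was higher than all 3 nuclei for 141 genes (0.42% of those tested) and lower than all 3 for 8 genes (0.0238%). These shares chose the members and carry no test. RPKM is the number of reads scaled to gene length and to the size of the library. The deposited values also contain an added number of reads, so a gene with no read in a library is listed at a small value above 0. This is here called its no-read value, and a fold change is understated for genes near it. The filter let genes without reads pass, and 4747 of the tested genes were at the no-read value in every library. These hold no difference to call, and every share of all genes tested includes them. The margin of a gene is the smallest of its 3 differences (DMH minus another nucleus, log2(RPKM + 1)) when all 3 have the same sign.

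The DMH lies between the VMH below and the PVN above, takes part in the control of feeding, body temperature, heart rate and daily rhythm, and contains a mix of GABA and glutamate neurons, many of them marked by a peptide. Beside it lies the lateral hypothalamus, known for the neurons that make orexin (Hcrt) and melanin-concentrating hormone (Pmch), both of which promote feeding or arousal. In RNA from a whole captured region, fewer cells of a type and less RNA per cell cannot be told apart. The 4 nuclei were taken from the same brains, and the labels do not say which libraries share a mouse, so the p-values measure the spread between libraries as if they were separate.

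The libraries fell into 3 batches that can be read from recurring no-read values (10, 16 and 16 libraries). For every gene the deposited batch means were equal (within 8.4e-07 on the log2 scale), whatever nuclei a batch held. Batch 1 held 1 DMH library, fed library 1, of its 10, and batches 2 and 3 held 4 of 16 each, so all 4 fasted DMH libraries were in batches 2 and 3. A gene high in DMH therefore has its batch 1 values set against fewer DMH libraries, which raises them in all nuclei of that batch relative to the others. Without batch 1, 119 genes were higher than in all 3 nuclei, 80 of them among the 141, and 22 were lower, 7 of them among the 8. Within both batches 2 and 3 the DMH mean was above the nearest nucleus for 116 of the 141 higher genes and below it for 8 of the 8 lower genes. These are the libraries that chose the genes, so the counts are a description.

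For the first 3 genes by margin and for the receptor of largest margin, the 250 bases before their start are shown as the sequences behind the leading results (RefSeq, GRCm38.p6, 5′ to 3′ on the strand of the gene). Capitals mark matches to TAATTA, a core read by many homeodomain factors, and to TGACAG or its reverse complement CTGTCA, a core read by Meis factors. The half-site of nuclear receptors such as Rorb and Thrb, AGGTCA or TGACCT on the other strand, was searched as well.

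Hcrt, chr11:100762932-100763181, strand minus: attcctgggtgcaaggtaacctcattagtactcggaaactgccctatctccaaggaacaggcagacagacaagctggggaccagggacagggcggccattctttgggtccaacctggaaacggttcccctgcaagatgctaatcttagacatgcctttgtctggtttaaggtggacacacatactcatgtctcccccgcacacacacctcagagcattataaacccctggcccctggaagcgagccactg
Npvf, chr6:50654446-50654695, strand minus: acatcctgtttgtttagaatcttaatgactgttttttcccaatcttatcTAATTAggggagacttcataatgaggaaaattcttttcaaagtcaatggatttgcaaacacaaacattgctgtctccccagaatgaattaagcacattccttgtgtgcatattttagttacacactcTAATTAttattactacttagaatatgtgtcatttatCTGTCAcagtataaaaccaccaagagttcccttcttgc
Pmch, chr10:88090822-88091071, strand plus: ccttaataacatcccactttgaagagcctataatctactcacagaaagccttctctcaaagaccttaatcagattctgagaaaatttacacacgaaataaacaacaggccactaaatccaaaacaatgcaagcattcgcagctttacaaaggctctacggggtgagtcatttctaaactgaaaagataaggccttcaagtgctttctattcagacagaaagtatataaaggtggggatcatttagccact
Gpr50, chrX:71663417-71663666, strand plus: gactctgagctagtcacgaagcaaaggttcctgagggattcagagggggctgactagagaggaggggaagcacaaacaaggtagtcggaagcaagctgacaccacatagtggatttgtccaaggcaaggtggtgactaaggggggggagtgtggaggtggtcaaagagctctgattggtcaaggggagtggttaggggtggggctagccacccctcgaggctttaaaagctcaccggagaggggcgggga

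The Npvf stretch held TAATTA at 2 places and CTGTCA at 1 place, and the stretches of Hcrt, Pmch and Gpr50 held 0 matches to any of the 3 motifs. Over 32851 mouse promoters of the same 250 bases, 4.84% held TAATTA, 14.0% held AGGTCA or TGACCT, and 15.9% held TGACAG or CTGTCA. GC content was 33.2% for Npvf, 38.4% for Pmch, 53.6% for Hcrt and 56.8% for Gpr50. A match is a run of letters, and no binding was measured.

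Lists of marker genes give a description of the captured tissue. They were chosen with earlier results of these data known, and the same fasted libraries chose the set, so the counts carry no test. Of 15 genes listed as DMH markers, 7 were higher in fasted DMH than in all 3 other nuclei (Npvf, Grp, Gpr50, Hmx2, Hmx3, Prdm13 and Gal), beside 0.42% of all genes tested. Their summed level was 469.8 to 625.2 RPKM in the 4 DMH libraries, and the highest of the other 16 was a PVN library at 263.0 RPKM. Markers of the neighbours were mostly lower in DMH than in the nucleus they mark. Of 11 ARC markers tested, 9 were lower in DMH than in ARC (1.3% of all genes were). Of 10 VMH markers 8 were lower than in VMH (1.93%), and of 10 PVN markers 7 were lower than in PVN (1.36%). The ARC list still summed to 231.2 to 275.7 RPKM in DMH. It summed to 2166 to 3015 RPKM in ARC, 41.6 to 75.0 in VMH and 118.3 to 246.4 in PVN. The lists were also set against nuclei that they do not mark. Against ARC, 3 VMH markers were higher in DMH and 1 lower, and 4 PVN markers were higher (all genes, 1.9% higher and 1.3% lower). Against VMH, 3 ARC markers were higher and 2 lower, and 4 PVN markers were higher and 1 lower (2.02% and 1.93%). Against PVN, 1 ARC marker and 1 VMH marker were higher and 0 were lower (1.65% and 1.36%). Agrp, Nr5a1 and Oxt, chosen after their values were seen, were lower in DMH than in the nucleus each marks. Agrp was at 1.95 to 5.36 RPKM in DMH and at 341.2 to 596.9 in ARC. The VMH factor Nr5a1 was at 0.45 to 2.15 RPKM in DMH and at 15.4 to 28.9 in VMH. Oxt was at 11.6 to 23.8 RPKM in DMH and at 3342 to 5280 in PVN.

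**Figure D1:**
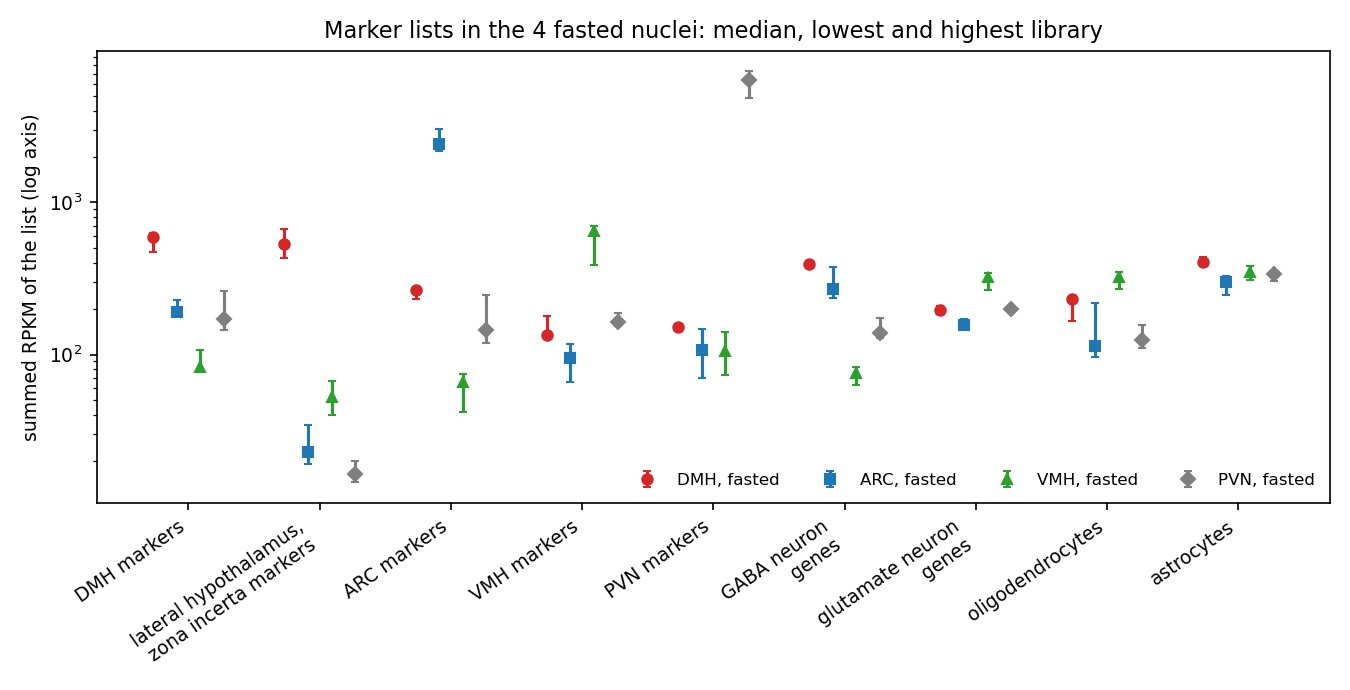
Summed RPKM of the genes in each list (vertical, log axis) for 9 marker lists in the fasted DMH (4 libraries), ARC (5), VMH (6) and PVN (5). Points are the median library and bars run from the lowest to the highest. DMH libraries stand above the other nuclei for the DMH list, the lateral hypothalamus list and, by a small gap, the astrocyte list. For the GABA list they stand above VMH and PVN and overlap only the top of the ARC range (DMH 372.1 to 404.7 RPKM, ARC 236.9 to 376.7). By median they stand between ARC and VMH for the glutamate and oligodendrocyte lists.

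The largest differences were those of peptide genes. Hcrt (ENSMUSG00000045471, chromosome 11, 100761069 to 100762931, GRCm38), the precursor of the orexins, was at 187, 127, 94.7 and 204 RPKM in the 4 fasted DMH libraries. It lay between 1.10 and 4.65 RPKM in the 16 other fasted libraries, with medians of 1.89 in ARC, 2.64 in VMH and 1.63 in PVN, and 4 of these libraries were at the no-read value. The groups did not overlap, and the margin was 5.31, against VMH (SE 0.39, limma adjusted p = 9.57e-12). In fed mice, Hcrt was at 48.8 to 446 RPKM in the 5 DMH libraries and at most 3.74 RPKM elsewhere (fed margin 5.38, limma adjusted p at most 5.2e-07). The fed library at 446 RPKM is the one in batch 1. Within batches 2 and 3 the fasted difference from the nearest nucleus was 5.49 and 5.27, and every DMH library, fed or fasted, was above every library of the other nuclei.

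Npvf (ENSMUSG00000029831, chromosome 6, 50650672 to 50654439), the precursor of the RF-amide peptide RFRP-3, which acts on the reproductive axis, was at 141, 74.5, 93.7 and 81.5 RPKM in the fasted DMH. The other fasted libraries ranged from 0.94 to 5.10 RPKM, with medians of 1.60 in ARC, 2.33 in VMH and 1.31 in PVN. Npvf had the smallest adjusted p of the leading peptides, with a margin of 4.86 (SE 0.29, limma adjusted p = 1.42e-13). The ARC library at 5.10 RPKM is in batch 1, and within batches 2 and 3 the difference from the nearest nucleus was 5.21 and 4.97. The fed DMH libraries lay at 52.5 to 135 RPKM (fed margin 4.85), above every fed library of the other nuclei.

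Pmch (chromosome 10, 88091072 to 88092375, plus strand) was at 363, 504, 355 and 197 RPKM in fasted DMH. It was at 12.6 to 27.8 RPKM in VMH (median 17.8), at 1.18 to 3.80 in ARC and at 1.20 to 3.94 in PVN. VMH thus stood well above ARC and PVN for this gene but was still below every DMH library, with a margin of 4.14 (SE 0.46, limma adjusted p = 6.9e-08; 4.73 in batch 2 and 3.66 in batch 3). Parpbp (chromosome 10, 88091432 to 88146941, minus strand) encodes a protein that binds PARP1, and its exons overlap 58.1% of the exon length of Pmch on the opposite strand. Parpbp was at 132, 172, 121 and 79.8 RPKM in fasted DMH and between 0.29 and 15.8 RPKM elsewhere (margin 3.93). As for Pmch, DMH-Fast library 2 was the highest and library 4 the lowest of the DMH, and because the reads carry no strand, the reads of the 2 genes cannot be told apart.

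The lateral hypothalamus and zona incerta list moved with these results. Of its 11 genes, 4 were higher in fasted DMH than in all 3 other nuclei (Hcrt, Pmch, Nts and Meis2; 0.42% of all genes were), and the DMH mean was the highest of the 4 nuclei for 8, as it was for 7155 of all 33579 genes. The summed level was 429.0 to 663.6 RPKM in DMH, 39.8 to 67.4 in VMH, 19.1 to 34.6 in ARC and 14.5 to 19.8 in PVN. Most of the DMH sum came from Hcrt and Pmch, so it says little of the other genes in the list. Over the 11 genes the median differences from ARC, VMH and PVN were smaller, at 0.2923, 1.0002 and 0.5917 on the log2(RPKM + 1) scale. Pairwise, 4 were higher than in ARC, 6 higher and 1 lower than in VMH, and 4 higher than in PVN. The part of tissue from outside the nucleus in these results was not tested. Over the whole set, every DMH library was above every other fasted library for 32 of the 141 higher genes, and this held for 52 of all genes tested (0.155%).

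**Figure D2:**
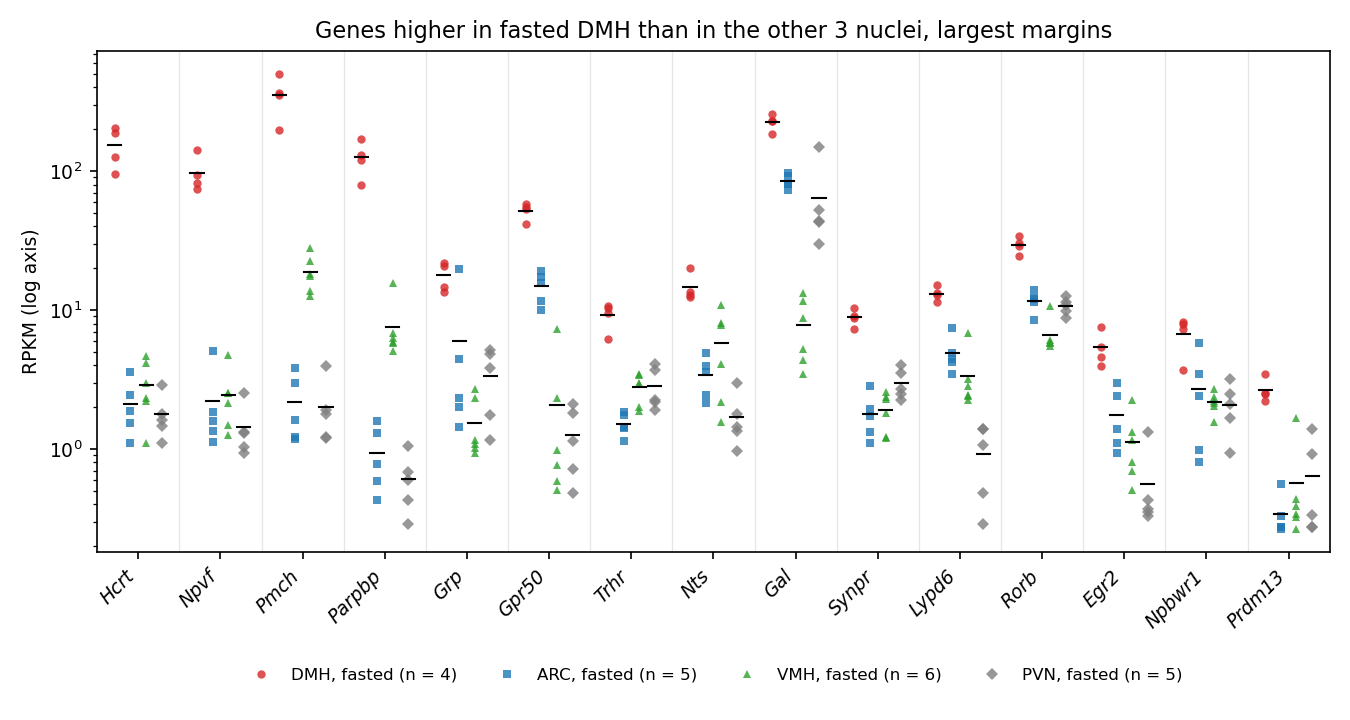
RPKM in each of the 20 fasted libraries (vertical, log axis) for the 15 genes with the largest margins, left to right by margin. Points are libraries (DMH 4, ARC 5, VMH 6, PVN 5) and black lines are group means. For 13 of the 15 genes all DMH libraries lie above all others; Grp overlaps ARC, where a library reached 19.9 RPKM, and Npbwr1 overlaps ARC through a DMH library at 3.68 RPKM.

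Among the remaining peptides, Gal, the precursor of galanin, was the most abundant, at 230, 186, 231 and 256 RPKM in DMH. ARC was next at 72.8 to 97.0 RPKM, and a PVN library reached 149 RPKM while the PVN median was 43.8. The groups did not overlap (margin 1.40, SE 0.40, limma adjusted p = 0.0512). Grp, gastrin-releasing peptide, was at 20.9, 14.6, 13.6 and 21.9 RPKM in DMH, against ARC libraries from 1.43 to 19.9 RPKM with a median of 2.31 (margin 1.92, limma adjusted p = 0.00488). Nts, neurotensin, was at 13.6, 12.8, 19.9 and 12.5 RPKM, above the highest VMH library at 10.8 RPKM, with a margin of 1.41 close to the threshold (SE 0.45, limma adjusted p = 0.0933). The call for Nts was kept in 8 of 20 fits that left out a library, that of Gal in 16 of 20 and that of Grp in 20 of 20.

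Of 55 neuropeptide genes tested, these 6 (Gal, Grp, Hcrt, Npvf, Nts and Pmch) were higher than in all 3 other nuclei (0.42% of all genes were), and 0 were lower. Pairwise, 13 of the 55 were higher and 6 lower than in ARC, 18 higher and 5 lower than in VMH, and 8 higher and 8 lower than in PVN. The background over all genes was 1.9% higher and 1.3% lower against ARC, 2.02% and 1.93% against VMH, and 1.65% and 1.36% against PVN. Median differences of the list were 0.00, 0.33 and 0.00 on the log2(RPKM + 1) scale, against 0.00 over all genes tested in each comparison. The 3 comparisons share the 4 DMH libraries. Cck, cholecystokinin, was at 56.2, 36.6, 54.6 and 77.5 RPKM in DMH and at most 22 RPKM in the other 16 libraries. The groups did not overlap, but the difference from PVN, 1.58 (SE 0.53), missed the threshold (limma adjusted p = 0.148).

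Receptors formed a smaller group. Of 59 receptors of peptides and hormones tested, 2 were higher than in all 3 nuclei (0.42% of all genes were), Gpr50 and Trhr. Pairwise, 5 were higher and 15 lower than in ARC, 13 and 10 than in VMH, and 8 and 9 than in PVN, with median differences of -0.34, 0.08 and 0.01. Gpr50, an orphan receptor related to the melatonin receptors, was at 57.7, 41.5, 55.2 and 53.4 RPKM in DMH. It lay at 10.04 to 19.2 RPKM in ARC, with medians of 0.88 in VMH and 1.15 in PVN, so that ARC was the only other nucleus with more than 7.25 RPKM in any library (margin 1.77, SE 0.36, limma adjusted p = 0.00311). Trhr, the receptor of thyrotropin-releasing hormone, was at 9.46, 6.14, 10.3 and 10.7 RPKM, above all 16 others (1.14 to 4.08; margin 1.42, limma adjusted p = 0.00147). Npbwr1, the receptor of neuropeptides B and W, which the list did not hold, was at 7.36, 3.68, 8.18 and 7.90 RPKM in DMH and at 0.81 to 5.81 elsewhere (margin 1.20, limma adjusted p = 0.0684). Of 31 receptors of amines and acetylcholine, 0 passed in all 3 comparisons, beside 0.42% of all genes higher and 0.0238% lower.

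Of 84 patterning transcription factors tested, 7 were higher than in all 3 nuclei (Hmx2, Hmx3, Lef1, Meis2, Onecut3, Prdm13 and St18) and 0 were lower, beside 0.42% and 0.0238% of all genes. Pairwise, 16 were higher and 10 lower than in ARC, 24 and 9 than in VMH, and 21 and 10 than in PVN. Hmx2 and Hmx3, neighbouring homeobox genes on chromosome 7, followed the same order. Hmx3 was at 2.67, 2.52, 2.89 and 3.07 RPKM in DMH, at 0.89 to 1.94 in ARC and at most 0.94 in VMH and PVN, where its no-read value is 0.943, 0.662 or 0.680 by batch (margin 0.70, limma adjusted p = 0.00701). Hmx2 was at 6.88, 5.30, 3.70 and 6.32 RPKM in DMH and at 1.98 to 4.35 in ARC (margin 0.80, limma adjusted p = 0.0667). ARC was thus the second nucleus for both, and a DMH library overlapped ARC for Hmx2 but not for Hmx3.

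Prdm13, a zinc-finger factor of GABA neuron fate in the nervous system, was at 2.23, 2.53, 2.48 and 3.45 RPKM in DMH and at most 1.67 elsewhere (margin 1.20, limma adjusted p = 0.00328). Meis2, a homeobox factor, was at 1.80, 3.57, 1.34 and 1.41 RPKM against at most 0.80 elsewhere (margin 1.0, limma adjusted p = 0.000113). Lef1, a factor of the Wnt pathway, was at 4.78, 4.34, 4.76 and 4.90 RPKM, with ARC reaching 4.02, and 13.7% of its exons overlap another gene. St18 overlapped ARC through a library at 10.2 RPKM, and Onecut3 varied most within DMH, at 0.67, 5.72, 2.88 and 1.25 RPKM. Among the fits that left out a library, Onecut3 kept its call in 10 of 20, Lef1 in 12, Hmx2 in 14 and St18 in 15. Without DMH-Fast library 2 Onecut3 was not called, and its difference from the mean of the other nuclei was 0.55 in place of 0.91. Outside the list, Rorb, an orphan nuclear receptor, was at 24.6, 33.9, 30.6 and 28.7 RPKM in DMH and at 5.51 to 14.0 elsewhere (margin 1.28, SE 0.19, limma adjusted p = 2.61e-05). Rorb and Lef1 also stand in the thalamus list, where 2 of 6 genes were called higher (0.42% of all genes were). The summed level of that list was 53.4 to 58.4 RPKM in DMH and at most 34.9 in the other fasted libraries. The part of thalamic tissue in these results was not tested. Egr2, an immediate-early gene, was at 5.46, 4.6, 7.52 and 3.96 RPKM, above all others (at most 3.0, margin 1.23, limma adjusted p = 0.0508). Of 14 immediate-early genes it was the only member called, beside 0.42% of all genes called higher.

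Further members among the genes with reads in most libraries follow. Of these, Hdc, Rgs8, Gabrg3, Apoe and Ndrg2 were chosen after their values were seen. Synpr, the synaptic vesicle protein synaptoporin, was at 7.31, 8.80, 10.4 and 9.06 RPKM against 1.10 to 4.03 elsewhere (margin 1.31, limma adjusted p = 8.44e-05). Lypd6, which modulates nicotinic receptors, was at 11.3, 15.1, 13.2 and 12.8 RPKM against 0.29 to 7.44 (margin 1.28, limma adjusted p = 0.00334). Hdc, the enzyme that makes histamine, was at 5.34, 5.58, 6.30 and 7.90 RPKM against 0.32 to 4.99 (margin 1.01, limma adjusted p = 0.0144). In none of these did a DMH library fall within the range of the others. Rgs8, a regulator of G protein signalling, was at 15.7 to 22.2 RPKM against at most 12.8, and Gabrg3, a GABA-A receptor subunit, at 18.4 to 25.5 against at most 14.6. Smaller margins belonged to abundant genes: Apoe, a lipid carrier, was at 204 to 240 RPKM against 138 to 198 (margin 0.39), and Ndrg2, a gene of astrocytes, at 950 to 1200 against 563 to 1005 (margin 0.35). In the fits that left out a library, Apoe kept its call in 20 of 20 and Ndrg2 in 5 of 20. Of 10 astrocyte genes listed, 0 were called in all 3 comparisons (0.42% of all genes were higher and 0.0238% lower). Their summed level was 387.3 to 439.0 RPKM in DMH and 246.3 to 384.6 in the other nuclei. The part of astrocyte content in the calls of Apoe and Ndrg2 was not tested.

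GABA neuron genes were mostly higher in DMH than in VMH and PVN. Of 10 such genes, 9 were higher in DMH than in VMH (2.02% of all genes were), 8 higher than in PVN (1.65%) and 1 higher than in ARC (1.9%). The median differences from VMH, PVN and ARC were 2.03, 1.73 and 0.45 on the log2(RPKM + 1) scale. Gad1, which makes GABA and was chosen after its values were seen, was at 23.2 to 28.1 RPKM in DMH, 21.5 to 30.6 in ARC, 0.91 to 5.54 in VMH and 1.87 to 4.12 in PVN. Of 7 glutamate neuron genes, 2 were higher in DMH than in ARC (1.9% of all genes were), 2 lower than in VMH (1.93%) and 1 higher than in PVN (1.65%). Their median differences from ARC, VMH and PVN were 0.35, -0.02 and 0.14. Slc17a6, the glutamate transporter of hypothalamic neurons, also chosen so, was at 38.1 to 59.3 RPKM in DMH, above ARC by 0.91 and below VMH by a difference of -1.35 (limma adjusted p = 0.00329 and 2.96e-06).

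The 8 genes lower in DMH had small margins, from -0.36 to -0.82. Rgs2, a regulator of G protein signalling, was at 44.8, 55.1, 53.6 and 52.1 RPKM in DMH, at 62.5 to 113 in ARC, 59.4 to 91.6 in VMH and 147 to 176 in PVN (margin -0.60, SE 0.14, limma adjusted p = 0.00665). Cdh4, R-cadherin, was at 4.15, 2.04, 3.32 and 3.24 RPKM in DMH and at 5.14 to 25.8 elsewhere, with VMH the highest at a median of 21.1 (margin -0.70, limma adjusted p = 0.0455). Gpr165, an orphan receptor, was at 54.5, 46.2, 49.6 and 50.2 RPKM against 56.1 to 87.1 (margin -0.44, limma adjusted p = 0.0284). For these 3 genes every DMH library was below every other fasted library, as it was for 6 of all genes tested (0.0179%).

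The other 5 overlapped with another nucleus. Thrb, a thyroid hormone receptor, was at 5.73, 4.86, 4.56 and 8.36 RPKM in DMH, with PVN next at 8.24 to 10.5 (margin -0.58, limma adjusted p = 0.0887). Kcnk2, a background potassium channel, was at 13.3, 9.26, 9.93 and 8.56 RPKM, with PVN from 13.0 and VMH from 12.9 (margin -0.73), and 12.2% of its exons overlap another gene. Srrm4, a splicing regulator of neurons, was at 8.86 to 11.5 RPKM against 9.65 to 25.8, and Syt5, a synaptotagmin, at 74.3 to 103 RPKM against 96.5 to 154. Adgb, androglobin, was at 0.82 to 2.06 RPKM against 1.21 to 5.96. Of the 8, Rgs2 kept its call in all 20 fits that left out a library.

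**Figure D3:**
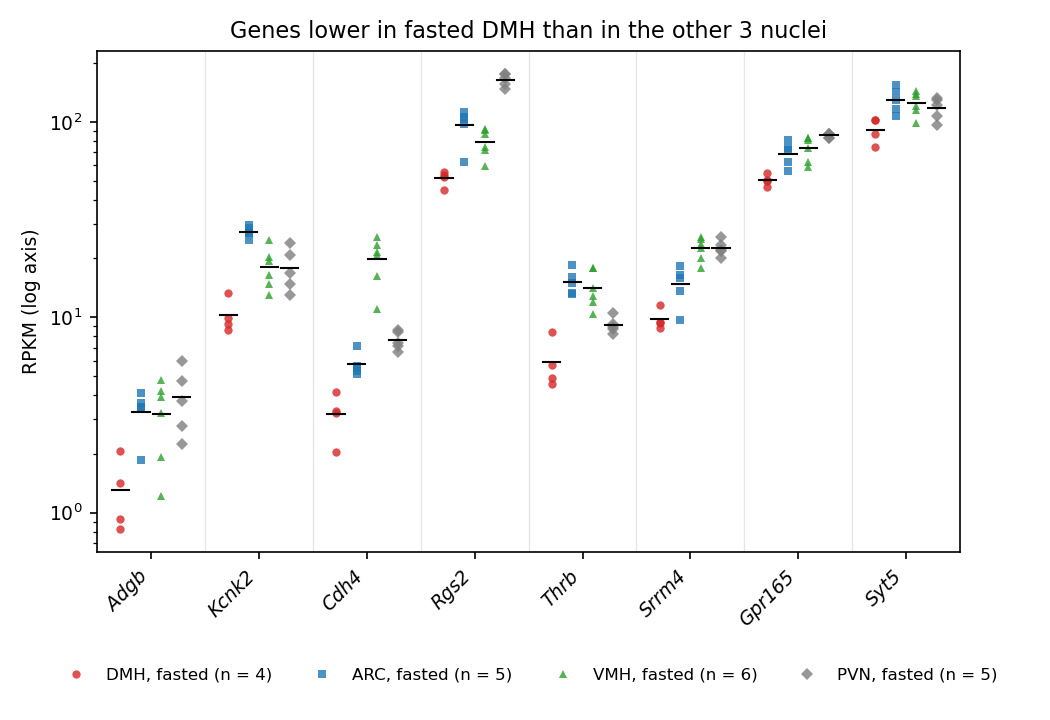
RPKM in each fasted library (vertical, log axis) for the 8 genes lower in DMH, left to right by margin; points are libraries (DMH 4, ARC 5, VMH 6, PVN 5) and black lines are group means. DMH libraries lie below all others for Rgs2, Cdh4 and Gpr165 and overlap at least 1 nucleus for the other 5.

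The 141 higher genes were of 2 kinds, a division made after the values were seen. For 97, at least 8 of the 16 other fasted libraries were at the no-read value. These genes had a median of 6 reads in all over the 4 DMH libraries (range 2 to 270) and a median margin of 0.17. Of them, 20 were olfactory or vomeronasal receptors, and the DMH markers Hmx2 and Hmx3 were also among the 97. The median margin of the other 44, all protein coding, was 0.94. The estimated depth was 7.38 ± 4.0 M reads in DMH (SD, n = 4), with library 4 at 13.2 M. It was 5.32 ± 1.96 M in ARC (n = 5), 3.83 ± 1.92 in VMH (n = 6) and 4.8 ± 1.55 in PVN (n = 5). The differences in depth did not pass an exact two-sided permutation test (p = 0.381, 0.105 and 0.222). The part of depth in the 97 calls was not tested. With depth as a covariate 133 genes were called, 117 of them among the 141. Without batch 1, 80 of the 141 were still called, and 41 of these were from the 44. The part of batch 1 in the 97 calls was not tested. The count of higher genes was 217, 256, 299 and 209 without DMH-Fast libraries 1, 2, 3 and 4 in turn, and that of lower genes 5, 3, 8 and 5. Of the 141, 85, 95, 100 and 85 were still called in these fits.

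Fed mice gave a reading of the same nuclei in libraries whose means the rule did not use, although their spread entered the pooled error. In fed mice DMH was above all 3 other nuclei for 58 of the 141 genes, beside 20.9% of all genes tested. Of the 44 genes with reads in most libraries 42 were above. Of the other 97 it was 16, a smaller share than the 20.9% of all genes. In a fit of the 22 fed libraries alone, 21 of the 141 passed in all 3 comparisons (0.155% of all genes did), 20 of them from the 44. Of the 8 lower genes, 7 were below all 3 in fed mice (21% of all genes were), and 5 passed (0.0596% of all genes): Rgs2, Cdh4, Gpr165, Thrb and Syt5. Kcnk2 was the exception, at 8.50 to 15.8 RPKM in fed DMH and 8.97 to 13.3 in fed PVN.

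**Figure D4:**
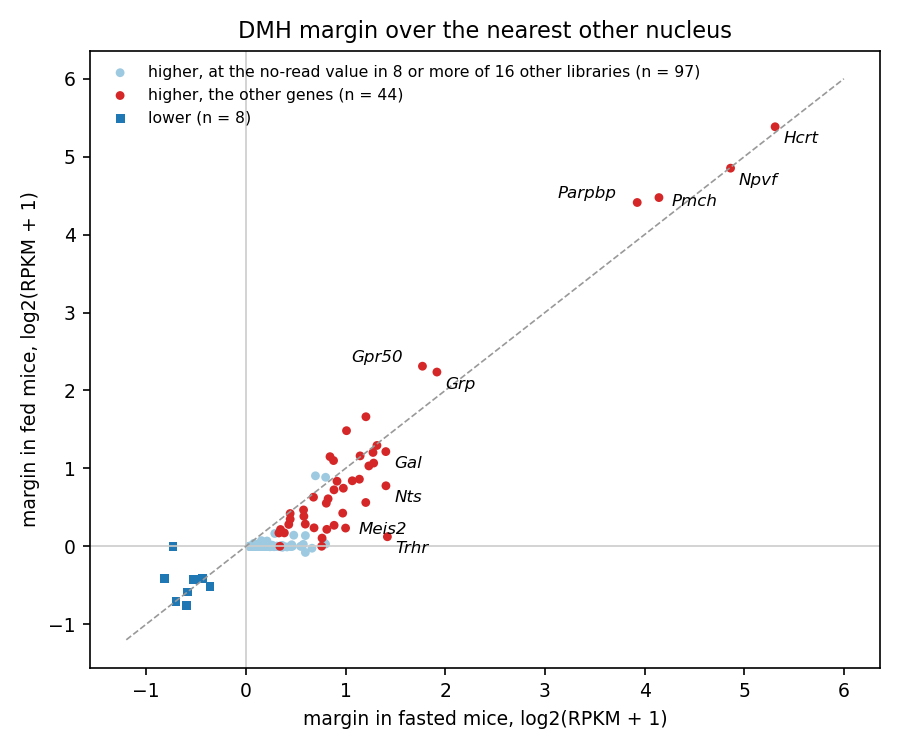
Margin of DMH over the nearest other nucleus in fasted mice (horizontal) and in fed mice (vertical), log2(RPKM + 1), for the 141 higher genes (97 in light blue, 44 in red) and the 8 lower genes (dark blue squares); the dashed line marks equal margins, and a margin is set to 0 where the 3 differences do not share a sign. The first 4 genes by margin lie near the line from 3.93 to 5.31, and Trhr and Meis2 lie near 0 on the fed axis.

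Whether the DMH difference itself changed with fasting was tested as an interaction (DMH minus the mean of the other 3 nuclei, fasted minus fed). No gene passed after adjustment (0 of 33579, limma; 1771 genes, 5.27%, had an unadjusted p under 0.05). The count was 6, 44, 55 and 28 without DMH-Fast libraries 1, 2, 3 and 4 in turn, so it rests on which libraries are included. Trhr had a fasted margin of 1.42 and a fed margin of 0.12, where fed VMH reached 15.2 RPKM, but the interaction of 0.91 (SE 0.31) was not past the threshold (limma adjusted p = 0.832). For Meis2 the margins were 1.0 and 0.23, and the interaction was 0.82 (SE 0.19, limma adjusted p = 0.438). The 5 genes with the smallest interaction p, Gm13238, Prr22, Lsmem1, Olfr140 and Gm6788, all had an adjusted p of 0.242 and lay near their no-read values. Ppp1r17, a DMH marker, was at 44.7 to 55.7 RPKM in fasted DMH and 33.9 to 68.5 in fasted PVN, and so was not called. In fed mice it was at 41.2 to 58.8 RPKM in DMH and 12.3 to 28.0 in PVN, and passed (fed margin 1.38, limma adjusted p = 0.00145).

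The remaining DMH markers were not called in all 3 comparisons. Prlh had no read in any of the 20 fasted libraries (listed at 4.19 RPKM). Brs3, a bombesin receptor family member, was at 4.38, 1.89, 4.35 and 4.14 RPKM in DMH and at 3.63 to 6.67 in ARC, above VMH by 1.5 and above PVN by 0.86 (limma adjusted p = 0.000107 and 0.0781). Prokr2 and Pdyn lay within the range of the other nuclei, at 1.56 to 2.52 and 38.8 to 50.3 RPKM. Lhx6 was at 1.08 to 2.83 RPKM and reached 2.92 in VMH. Nr4a2 was below ARC (difference -1.58, limma adjusted p = 0.00011) at 0.49 to 1.55 RPKM.

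Counted per nucleus, DMH was higher than ARC for 639 genes and lower for 438, higher than VMH for 677 and lower for 647, and higher than PVN for 554 and lower for 455. Across the 4 fasted nuclei 3993 genes differed (11.9%, limma F test). DMH had the highest mean for 624 of these and the lowest for 418, and lay between other nuclei for 73.9%. ARC lay between for 46.3%, VMH for 31.0% and PVN for 45.6%. A gene with the same mean in ARC and PVN was given no place for those nuclei but stayed in the total. The median correlation of a DMH library with other fasted libraries, over genes, was 0.960 within DMH and 0.941 with ARC, 0.942 with VMH and 0.944 with PVN. The points of these correlations are genes of the same libraries, so they carry no test.

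The members nearest to the threshold were Lag3, Ndrg2 and Gm23950, with largest adjusted p of 0.0980, 0.0984 and 0.0985 (limma). Just outside were Gm15507 at 0.103, Galr1 at 0.104 and Ifnl3 at 0.104 (limma adjusted p). Galr1, a galanin receptor, was at 10.9, 9.74, 8.31 and 4.92 RPKM in DMH and at most 5.64 elsewhere.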

How the data were processed

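Laser-captured nuclei of wild-type mice gave 42 libraries in 8 groups (4 nuclei, fed or fasted 24 hours), amplified with a kit that does not mark strand and sequenced single-end. The authors deposited one RPKM table of 37907 genes, and its RPKM values were made by the authors with TopHat2 2.0.11 and edgeR on GRCm38, according to the submitters' notes, with Cufflinks 2.2.1 and CASAVA 1.7 also named. By their steps, the RPKM values hold an added 5 reads on average (1.46 to 14.5 by library), and 97.6% to 98.9% of low values are whole reads above it (within 0.02 of a read). Batch means had been removed on the log2 scale without regard to group. Total reads were estimated from these steps, at 1.33 to 13.2 M reads in fasted libraries. The files hold no counts, so no counting interval is given. 0 columns were left unmapped.

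Genes of at least 1 RPKM in at least 4 libraries were tested on log2(RPKM + 1) with limma over 8 groups, with a variance trend and Benjamini-Hochberg adjustment. The prior degrees of freedom were 0.49 beside 34 residual (1.44 without genes that do not vary), so variances were hardly moderated. Fed calls used a fit of the 22 fed libraries. By a fixed rule the text names the 15 higher genes of largest margin, the 8 lower genes and all DMH markers. The rule adds called genes of 4 lists (neuropeptides, 2 receptor lists, patterning factors) and the 5 smallest interaction p-values. Other genes were named outside this rule, with their values known. Exon overlap of at least 10% is marked (GENCODE M21, 36049 of 37907 IDs matched). Members and lists were chosen with earlier results of these data known. Scripts were tested on simulated data. pandas 2.3.3, SciPy 1.17.1 and Python 3.11.15 were used with R 4.3.3 and limma 3.58.1. Replicate numbers did not pair the libraries: same-numbered fasted libraries had deviations correlated from -0.131 to 0.065. Some items are not reported here. The alternatives are described after the report.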

Additional observations from a re-analysis of the deposited data

Results flagged for a closer look

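Of 205 groups of 4 to 6 libraries tested over the 42 named genes, 26 held a library whose gap to the nearest other library was larger than Dixon's 95% value for its group (about 1 in 20, or 10.2 groups, would be flagged by chance). All 26 lay in fasted groups or in fed DMH. Of the 26, 15 were in batch 1 libraries (ARC-Fast 1, VMH-Fast 1 and 2, PVN-Fast 1 and DMH-Fed 1). Batch means had been made equal although only 1 of the 10 libraries of batch 1 was from the DMH. The part of this step in the values was not tested. Values are RPKM.

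DMH-Fast library 2 was the low library of its group for Npbwr1 (3.68, others 7.36 to 8.18) and Brs3 (1.89, others 4.14 to 4.38). DMH-Fed library 1 was the high one for Pmch (1003), Parpbp (535), Nr4a2 (3.03) and St18 (17.7).

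In VMH-Fast library 1, the shallowest fasted library, Parpbp was at 15.8 and Rorb at 10.7. In VMH-Fast library 2, Lypd6 was at 6.89, Prdm13 at 1.67, Lhx6 at 2.92, Hmx2 at 1.0 and Olfr140 at 1.10. Lsmem1 was at 1.56 in VMH-Fast library 4 and Prr22 at 1.61 in VMH-Fast library 5.

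In ARC-Fast library 1, Npvf was at 5.10, its highest level outside the DMH in fasted mice, and Rgs2 at 62.5, its lowest in ARC. In ARC-Fast library 4, Prdm13 was at 0.557 and Nr4a2 at 3.27. In ARC-Fast library 5, Adgb was at 1.87, Cdh4 at 7.10, Lhx6 at 1.31 and Olfr140 at 0.924. In PVN-Fast library 1, Hmx2 was at 1.55 and Hmx3 at 0.943, its no-read value in batch 1, and in PVN-Fast library 3 Egr2 was at 1.31. Leaving out any fasted library reversed the direction of no called gene named here. The same libraries chose these genes, so this is a description.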

How the results depend on the processing

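All 141 higher genes kept their direction in the 20 fits that left out a fasted library, and in 14 other settings wherever they were tested. Of the 141, 83 were tested with a filter on the no-read value and 50 with a filter of 5 RPKM. The same libraries chose the genes, so a kept direction is a description. The number higher than all 3 nuclei was 57 with a filter of 5 RPKM, 55 with fasted libraries only and 90 with quantile normalization. It was 90 at an adjusted p under 0.05 and 20 with a log2 difference of at least 1. Of the 141, 50 were called with the filter of 5 RPKM, 41 with fasted libraries only and 86 with quantile normalization. The number lower was 16 with array weights, 22 without batch 1, 4 with a pseudocount of 5 RPKM, 4 at an adjusted p under 0.05 and 0 with a difference of at least 1. With that difference the pairwise counts were 300 (ARC), 411 (VMH) and 343 (PVN), and array weights gave 1565 for PVN and 3 for the interaction. Leaving out a library gave 111 to 299 higher, 3 to 10 lower and 0 to 55 interaction genes, and 3 to 4 lower genes passing in fed mice, against 5 with all libraries. The highest counts came without a DMH library: 217, 256, 299 and 209 higher without DMH-Fast 1, 2, 3 and 4, with 6, 44, 55 and 28 interaction genes. Of the 141, 85, 95, 100 and 85 were still called in these fits. The cause of the higher counts was not tested. In all 20 such fits 38 of the 141 were kept, 23 of them from the 44 with reads in most libraries, and 16 were kept in these and in 14 other fits, a count that leaves aside the stricter p and fold thresholds. A filter on the no-read value gave 96 higher genes with all 44 retained, and leaving out genes that do not vary, chosen after seeing the data, gave 110 with 104 of the 141. With the replicate number as a block, although the numbers do not pair the libraries, 101 genes were higher and 6 lower, and 3 of the lower genes passed in fed mice. Depth limits what is said of genes near their no-read value.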
